A study of Homo sapiens with 2 samples.

Results

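The cell cycle genes described here are 59 genes that act in G2 phase and mitosis, among them mitotic kinases and cyclins, checkpoint and kinetochore genes, kinesins, condensin and spindle genes. They were listed by symbol, and each was found once among the 46427 genes of the deposited count table. NK92 is an established human natural killer (NK) cell line, and PPMX-T003 is an antibody that blocks transferrin receptor 1, through which cells take up iron bound to transferrin. The study sequenced poly(A) RNA of this line to obtain an expression signature of the antibody. The unexposed cells and the cells exposed to PPMX-T003 came from 1 culture kept for 18 h in medium with human serum and then divided between 2 dishes, of which 1 received 10 µg/mL of the antibody for 6 h and the other nothing. Each condition was 1 dish and 1 library, so none of the differences could be checked in a replicate, and differences between the libraries are not shown to be differences between the conditions. The column read here as unexposed is named for 0 h and the other for 6 h, whereas the methods give both dishes the same time in culture, so a difference in harvest time cannot be told apart from the exposure.

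Read totals were 46766416 counts without and 43178462 counts with the antibody. Counts were scaled to library size as CPM, with trimmed-mean (TMM) factors of 1.0007 and 0.9993, and a change is given as the log2 ratio of exposed to unexposed CPM after a prior count of 2 was added. Its 95% Clopper-Pearson interval covers counting error only. A gene is called lower or higher below when this interval lay on 1 side of 0. Of the deposited genes, 13665 had at least 20 counts summed over the libraries and were tested, and all 59 members were among them. The least counted member, CDC25C, had 1682 counts in all. Levels are compared between genes only on the deposited TPM scale, which is per transcript length and was rounded to whole numbers by the authors.

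The line was checked against its markers. All 10 NK cell markers listed had more than 3 counts in both libraries, at a summed level of 3827 CPM unexposed and 4239 CPM exposed. Per length NKG7 was the most abundant of them, at 3215 and 3445 TPM, and IL2RB had the most counts. FCER1G (99 and 86 counts), TYROBP (205 and 219 counts) and CD7 (319 and 358 counts) had the fewest. Of 6 T cell markers, CD3D, CD3G and CD8B were at 0 counts in both libraries. The T cell receptor constant genes TRBC1 (3664 and 4100 counts) and TRAC (1501 and 1312 counts) were detected, and TRBC1 carried most of the summed T cell level of 110.4 CPM unexposed and 125 CPM exposed. Of the B cell markers, MS4A1 was at 0, and PAX5 had the most counts, 169 and 78 of the list's 183 and 90, or 3.91 and 2.09 CPM. The 4 myeloid markers summed to 24 and 16 counts (0.513 and 0.371 CPM), with CSF1R at 22 and 9, CD14 at 0 and 7, LYZ at 2 and 0 and MPO at 0. The 4 epithelial markers summed to 2 and 0 counts (0.043 and 0 CPM), the former all from KRT8, with EPCAM, KRT18 and CDH1 at 0. The part of these markers in the results was not tested.

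As background, cells entering mitosis activate CDK1 with cyclin B, compact their chromosomes with condensin and build a spindle whose microtubules attach to kinetochores. The spindle checkpoint holds back the anaphase promoting complex until every kinetochore is attached, after which securin and cyclin B are degraded, sister chromatids part and the cell divides. The messenger RNAs of these genes accumulate from late S phase to mitosis in dividing cells, including proliferating lymphoid lines, through promoter elements that include the cell cycle genes homology region (CHR) and CCAAT boxes.

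In the exposed library, 37 of the 59 genes were lower, 6 were higher and 16 had an interval that included 0. Among all genes tested, 23.9% were lower and 21.8% were higher by the same rule, and among the 7378 genes with at least as many reads as CDC25C, 33.7% were lower and 28.5% higher. With upper-quartile scaling the division was 29 lower and 10 higher, since CCNA2, BIRC5, MAD2L1, TTK, NUF2, KIF18A, NCAPD2 and CDCA2 were no longer called lower and CCNB2, FOXM1, CDC20 and TACC3 were called higher. The changes were small. The median log2 fold change of the 59 genes was -0.084, against -0.0020 for all genes tested and -0.011 for the genes of at least that depth. Falls of at least 0.32 on the log2 scale were found for 6 members, CENPF, KIF20B, ASPM, CENPE, BUB1 and KIF14, the last only just, against 9.48% of all genes tested and 2.3% of those at the depth of the members. With upper-quartile scaling KIF14 was at -0.31 and 5 members passed, and with the deposited TPM 7 did. No member was higher by as much, where 9.37% of all genes and 0.745% of those at this depth were. At 2-fold, 1.38% of all genes were lower and 1.27% higher, and no member passed in either direction. In summed level the members went from 9976 to 9198 CPM, or from 0.998% to 0.919% of all counts. A smaller share of cells in G2 and mitosis and less of these RNAs per cell cannot be told apart in RNA from a whole dish.

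The direction of change went with the base composition of the transcripts. Over all genes tested, the median log2 fold change climbed from -0.13 to 0.12 between the lowest and the highest of 10 equal classes of GC content. The transcripts of the 59 genes were poorer in GC than most, with a median GC content of 44.4% against 49.5% for all genes tested. Of the 44 members below that median, 35 were lower and 1 was higher, with a median log2 fold change of -0.12, and of the 15 at or above it, 2 were lower and 5 higher, with a median of 0.036. Genes of at least the depth of CDC25C, the members included, were divided in the same direction, since 51.1% of those below the GC median were lower and 11.1% higher, and 13.6% of those at or above it were lower and 48.8% higher. Across the 59 genes, which are not independent replicates and share both libraries, log2 fold change and GC content had a Spearman correlation of 0.745 and a Pearson correlation of 0.723. Over all genes tested with a GC value these were 0.387 and 0.204. With the length of the longest transcript the Spearman correlation was -0.453 for the 59 genes and -0.329 over all those genes. The wider set includes genes with far fewer counts than any member, and so with more counting error. No correlation was computed at the members' depth, so the size of these correlations cannot be compared between the 2 sets.

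**Figure D1:**
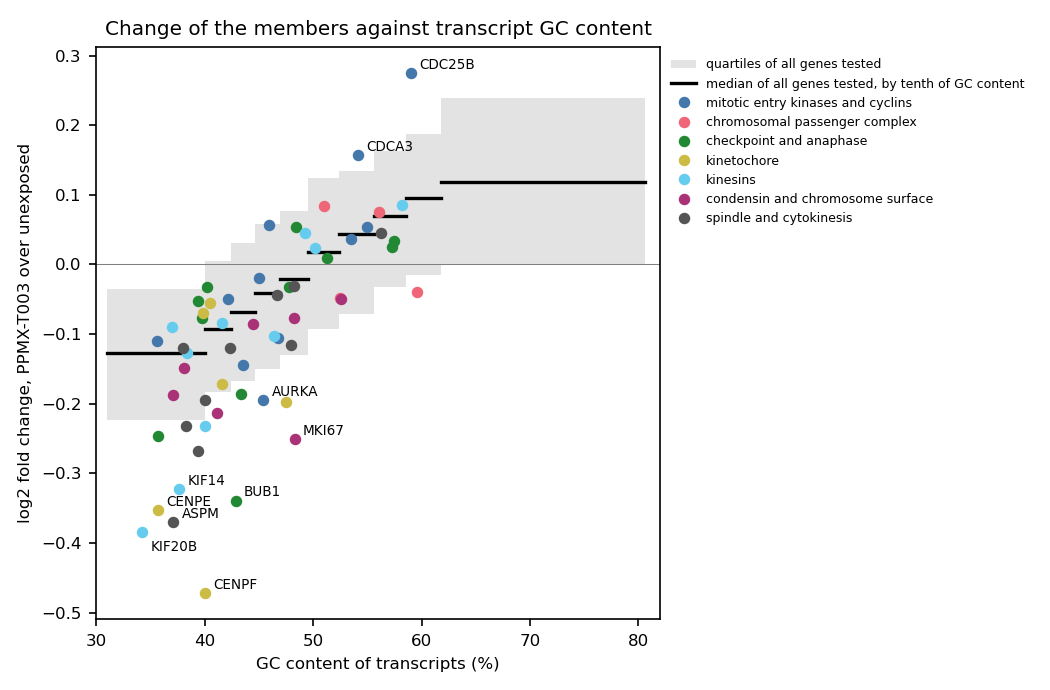
Log2 fold change (exposed over unexposed) of each of the 59 members against the GC content of its transcripts in percent, coloured by group, over the median (black line) and quartiles (grey) of all genes tested in 10 classes of GC content. CENPF at -0.47 and BUB1 at -0.34 lie farther below the medians of their classes than most members, and CDC25B at 0.27 lies above.

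A trend of the changes with the length and base composition of transcripts, estimated over all genes by robust regression, was therefore subtracted, and the value left is given beside genes and groups as the value after the fit. After it, 24 members were lower and 7 higher, against 26.5% lower and 24.1% higher among genes of the members' depth, and the members' median was -0.038. Of the 37 genes lower without the fit, 22 were lower after it, 13 had an interval that included 0, and CCNA2 and MAD2L1 were higher. Of the 6 higher genes, CDC25B, CDCA3, CDCA8 and BUB3 were higher after it as well. Of the 16 genes not called without the fit, INCENP and RACGAP1 were lower after it and CCNB2 was higher. When the fit took each gene's longest transcript instead of the median over transcripts, a setting chosen after the data were seen, the median was -0.053, with 26 members lower and 6 higher. The shares among genes of the members' depth were not counted with this setting, so these counts have no background beside them. Of the 37 genes, 22 were then lower, 14 had an interval that included 0 and MAD2L1 was higher. ANLN and NCAPD2 were no longer among the lower genes and NEK2 and NUSAP1 were. In all 35 of the 37 then lay below 0, against 27 with median transcripts, since CCNA2, CDK1, NUF2, KIF11, KIF23, SMC2, HMMR and TPX2 changed side. Of the 16 genes, INCENP, CDC20, UBE2C and PTTG1 were then lower and CCNB2 higher.

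Many promoters of these genes hold a known sequence feature. In RefSeq promoter windows from 250 bases before to 50 bases after a transcription start (GRCh38.p14), which were given for 50 of the members, the CHR letters TTTGAA or TTCGAA were searched on both strands, where TTCGAA reads the same on both. They occurred in 39 of the 50 genes (78%), against 16.1% of 10157 tested genes and 19.5% of all 27305 genes with a window. By window, 43 of the members' 64 (67.2%) held a match, against 12.5% of 14483 windows of tested genes and 16.4% of all 35116 windows. AURKA, BIRC5, BUB3, CDCA2, FOXM1, RACGAP1, TPX2, TTK and UBE2C had no window. The stretches around the match nearest to the start are shown for the 6 members with a match that had the lowest log2 fold changes and for the 6 that had the highest, to show how the element is written at both ends of the range. Genes with a window and no match were passed over, CENPE at the low end and AURKB, KIF20A and TACC3 at the high end. FOXM1 (0.054) and BUB3 (0.053) had higher log2 fold changes than PLK1 but no window. Each stretch is written 5′ to 3′ on the strand of its gene, with the matching letters in capitals. A match is a description of letters and not a site shown to be used.
CENPF: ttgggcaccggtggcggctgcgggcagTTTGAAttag
KIF20B: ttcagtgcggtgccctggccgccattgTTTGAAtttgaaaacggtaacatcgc
ASPM: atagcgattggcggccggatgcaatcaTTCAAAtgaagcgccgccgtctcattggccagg
BUB1: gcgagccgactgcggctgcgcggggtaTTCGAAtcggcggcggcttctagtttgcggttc
KIF14: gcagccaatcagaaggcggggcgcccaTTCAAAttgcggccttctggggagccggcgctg
DLGAP5: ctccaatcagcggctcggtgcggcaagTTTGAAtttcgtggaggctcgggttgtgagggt
PLK1: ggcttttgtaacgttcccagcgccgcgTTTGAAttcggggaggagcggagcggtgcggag
CCNB2: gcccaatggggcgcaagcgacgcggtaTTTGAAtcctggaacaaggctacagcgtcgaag
CDCA8: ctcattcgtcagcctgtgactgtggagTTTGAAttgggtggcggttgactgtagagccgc
KIF22: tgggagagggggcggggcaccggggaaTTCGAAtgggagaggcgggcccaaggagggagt
CDCA3: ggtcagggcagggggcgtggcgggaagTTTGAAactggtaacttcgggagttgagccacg
CDC25B: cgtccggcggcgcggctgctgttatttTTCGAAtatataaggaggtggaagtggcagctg
Among genes with a match, those with the lowest changes were CENPF (chr1:214603208-214603244, plus strand, log2 fold change -0.47), KIF20B (chr10:89701587-89701639, plus strand, log2 fold change -0.38) and ASPM (chr1:197146750-197146809, minus strand, log2 fold change -0.37), followed by BUB1 (chr2:110678030-110678089, minus strand, log2 fold change -0.34), KIF14 (chr1:200620718-200620777, minus strand, log2 fold change -0.32) and DLGAP5 (chr14:55191550-55191609, minus strand, log2 fold change -0.27). Those with the highest changes were PLK1 (chr16:23678833-23678892, plus strand, log2 fold change 0.036), CCNB2 (chr15:59105090-59105149, plus strand, log2 fold change 0.057) and CDCA8 (chr1:37692466-37692525, plus strand, log2 fold change 0.084), followed by KIF22 (chr16:29790697-29790756, plus strand, log2 fold change 0.086), CDCA3 (chr12:6851257-6851316, minus strand, log2 fold change 0.16) and CDC25B (chr20:3796245-3796304, plus strand, log2 fold change 0.27). In PLK1 and CCNB2 the match began 29 bases before the start, in KIF22 27, in CDCA8 23 and in CDC25B 38 bases before it, and in ASPM 113 bases before it. In CENPF it began 40 and in KIF20B 24 bases after the start, and in BUB1 and KIF14 1 base after it. In KIF20B a second match follows directly, in lower case. In ASPM and KIF14 the letters lie on the strand opposite to the gene and so read TTCAAA.

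In position the matches gathered near the start. Between 50 bases before and 25 bases after it, a range chosen after the positions were seen, 64% of the 50 genes held a match, against 4.31% of tested genes. The CCAAT letters, searched on both strands, occurred in 78% of the members with a window, against 43.3% of tested genes and 39.7% of all genes. Both elements stood in the same window in 31 of the 50 genes (62%), against 6.74% of tested genes. The E2F-like letters TTTCCCGC, TTTCGCGC, TTTGGCGC and TTTGCCGC, none of which contains the CHR or CCAAT letters and which were searched on both strands, occurred in 8% of the members, 7.03% of tested genes and 3.99% of all genes. Members with a CHR match had a median log2 fold change of -0.12, with 27 of 39 lower and 4 higher. The 11 with a window and no match had a median of -0.032, with 5 lower and 1 higher. Among all genes at the members' depth, 33.7% were lower and 28.5% higher, or 51.1% and 11.1% below the GC median. Shares among tested genes with and without a match were not counted, and a link between the match and the change was not tested. The CHR letters occurred in genes that fell and in genes that rose.

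The 11 kinases, cyclins and regulators of mitotic entry were divided. Lower values were called for 4 of them and higher values for 2, against 33.7% and 28.5% of genes at the members' depth, and the group's median log2 fold change was -0.019, or 0.023 after the fit and -0.0045 with the longest transcripts in it. CDC25B, CDCA3, PLK1 and FOXM1 lie above the GC median of all genes, where 13.6% of genes at that depth were lower and 48.8% higher. The other genes of the group lie below it, where 51.1% were lower and 11.1% higher. CDC25B, a phosphatase that activates CDK1 complexes at the start of mitosis, had 6310 and 7039 counts (135 and 163 CPM) in the unexposed and exposed libraries. It rose by 0.27 on the log2 scale (0.23 to 0.32), the largest rise of the 59 genes on this scale, and was at 0.22 after the fit. CDCA3, which promotes the degradation of the CDK1 inhibitor WEE1, had 1626 and 1672 counts (34.7 and 38.8 CPM) and rose by 0.16 (0.058 to 0.26), or 0.11 after the fit. CDC25C, which encodes a phosphatase related to CDC25B, had the lowest counts of the members, 906 and 776, and its change of -0.11 (-0.25 to 0.034), or -0.082 after the fit, was not detectable at this depth.

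AURKA, the kinase of centrosome maturation and spindle assembly, had 10133 and 8161 counts (217 and 189 CPM). It fell furthest of this group, with a log2 fold change of -0.19 (-0.24 to -0.15), and was at -0.14 after the fit. CDK1 itself had 5949 and 5081 counts and fell as well (-0.11, -0.16 to -0.056), and its transcripts hold 35.6% GC. It was at 0.023 after the fit and -0.053 with the longest transcripts, and was not called with either. NEK2, a kinase that separates centrosomes, had 1986 and 1657 counts and a log2 fold change of -0.14 (-0.24 to -0.049), or -0.081 after the fit and not called, and -0.12 and called lower with the longest transcripts. The cyclin gene CCNA2 was slightly lower, with 9657 and 8603 counts and a change of -0.049 (-0.092 to -0.0074), and lay on the other side of 0 at 0.043 after the fit, where it was called higher. With the longest transcripts it was at -0.0045 and not called.

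With TMM scaling and without the fit, the mitotic cyclin B genes were not called in either direction. CCNB1, the main partner of CDK1 and the most abundant transcript per length of this group, was at 239 and 227 TPM, with 10125 and 9210 counts (216 and 214 CPM) and a log2 fold change of -0.019 (-0.060 to 0.021), or 0.012 after the fit. CCNB2 was at 152 TPM in both libraries, with a log2 fold change in counts of 0.057 (-0.0025 to 0.12). After the fit CCNB2 was called higher, at 0.090, or 0.076 with the longest transcripts. PLK1, a kinase that acts from mitotic entry to cytokinesis, was at 123 and 122 TPM with a change of 0.036 (-0.019 to 0.091), or -0.030 after the fit. FOXM1, the transcription factor that drives many G2 genes, was at 67 TPM in both libraries with a change of 0.054 (-0.0041 to 0.11), or 0.038 after the fit. The deposited TPM lie lower in the exposed library than the counts give, by a median log2 difference of -0.054 over 6112 genes with a TPM of at least 20, so an equal TPM goes with a slightly positive change in counts.

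**Figure D2:**
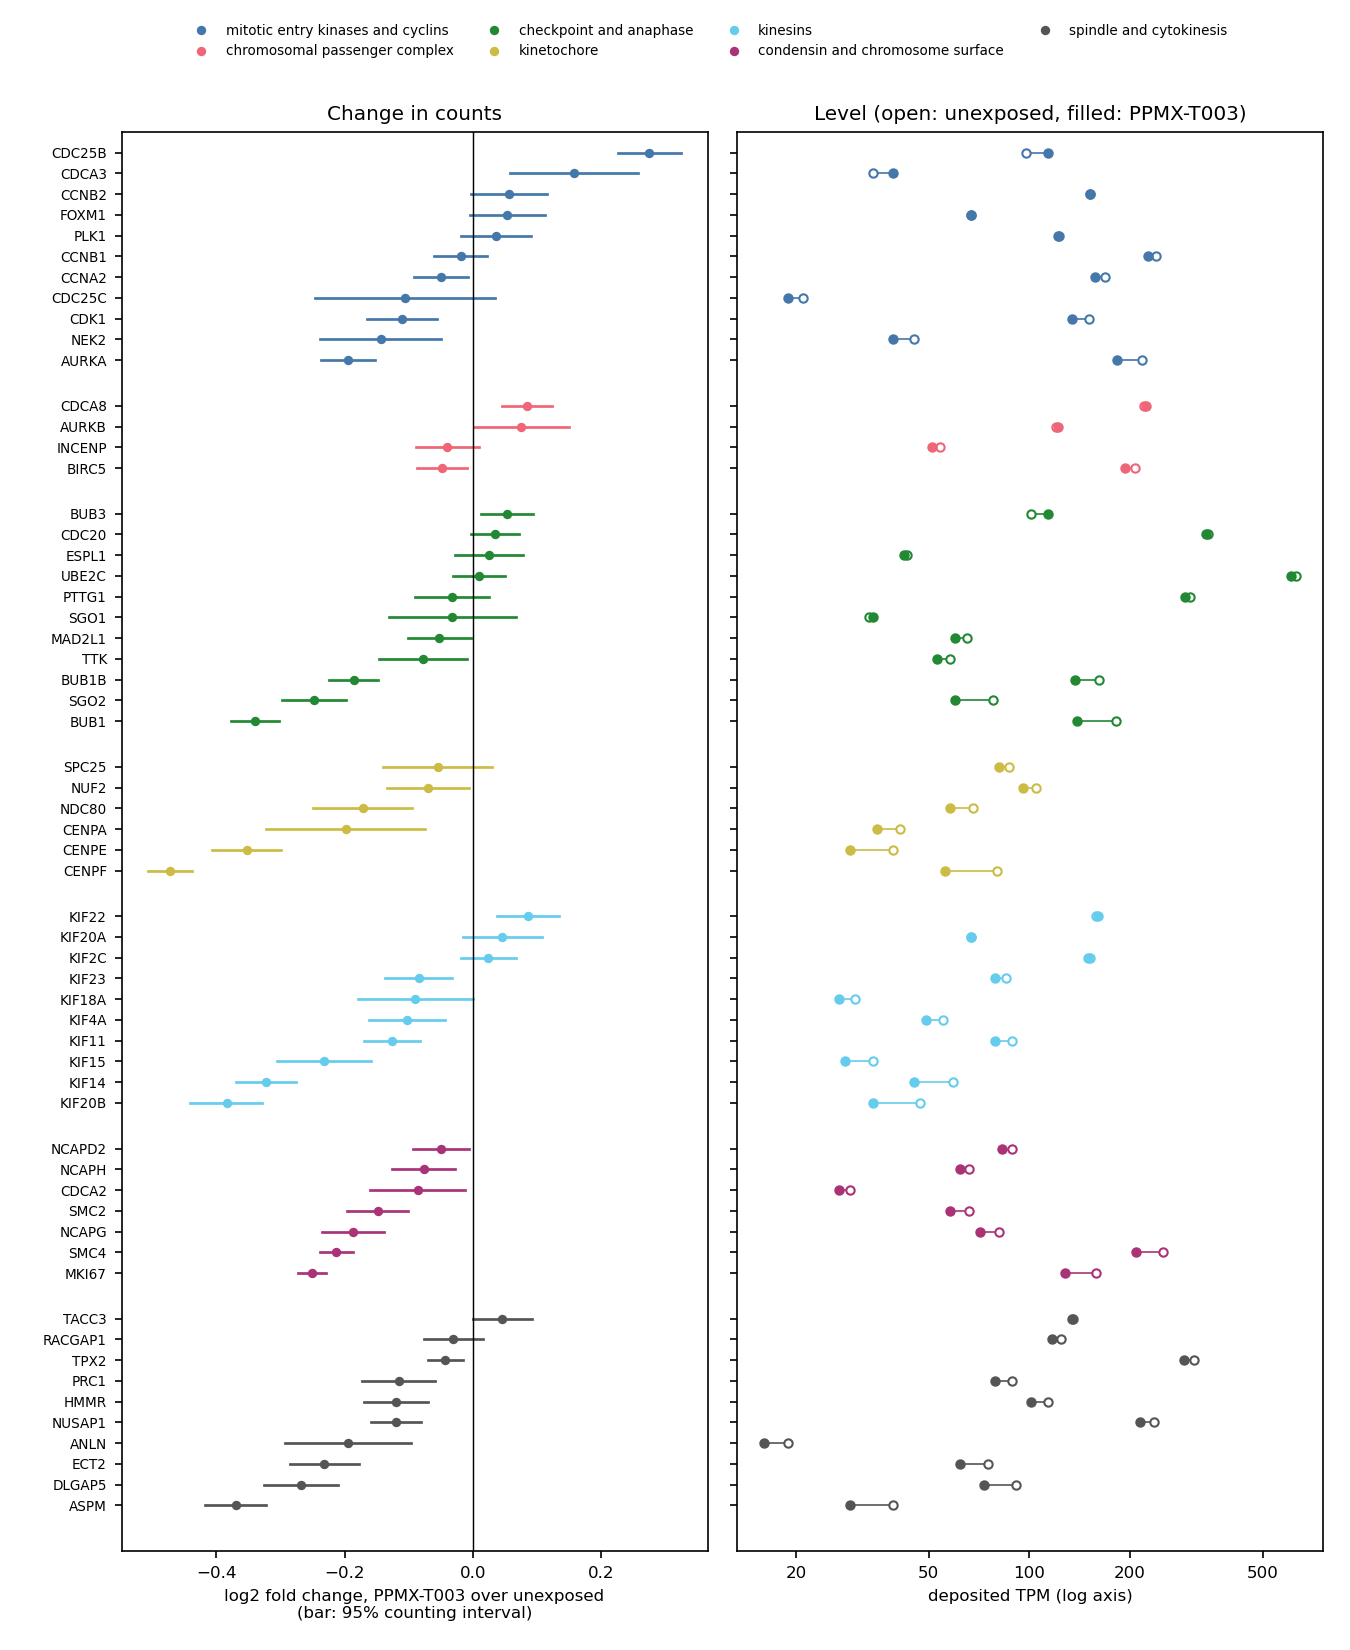
Left, log2 fold change in counts (exposed over unexposed) of each of the 59 members with its 95% counting interval. Right, its deposited TPM in the unexposed (open) and exposed (filled) library on a log axis, with genes grouped by role and ordered by change, from CDC25B at 0.27 to CENPF at -0.47, and UBE2C highest in level at 630 and 607 TPM.

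The 4 genes of the chromosomal passenger complex, which corrects faulty attachments and later guides cytokinesis, stayed within a narrow range. With 1 lower and 2 higher, where genes at the members' depth were lower in 33.7% and higher in 28.5%, their median log2 fold change was 0.017, or -0.041 after the fit, and their summed level was 685 CPM unexposed and 689.9 CPM exposed. All 4 genes lie above the GC median of all genes, where 13.6% of genes at the members' depth were lower and 48.8% higher. CDCA8, which encodes the subunit borealin, had 10788 and 10540 counts (231 and 244 CPM) and rose by 0.084 (0.045 to 0.12). It was at 0.089 after the fit and 0.047 with the longest transcripts, and was called higher with both. AURKB, the kinase of the complex, had 3009 and 2922 counts (64.3 and 67.7 CPM), and its change of 0.075 (0.00099 to 0.15) barely cleared 0. That call was lost when the libraries were scaled by total counts or by median-of-ratios size factors, and the value was -0.0066 after the fit. BIRC5, which encodes survivin, had 11019 and 9826 counts (235 and 228 CPM) and was lower by a small amount, -0.048 (-0.087 to -0.0087), or -0.075 after the fit. INCENP, the scaffold, was at -0.040 (-0.089 to 0.0086) and not called. It was called lower with median-of-ratios size factors and after the fit, at -0.093, or -0.10 with the longest transcripts. Per length, the scaffold had the lowest level of the complex at 54 and 51 TPM, below AURKB at 120 and 122, BIRC5 at 207 and 193 and CDCA8 at 220 and 224 TPM.

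Among the 11 genes of the spindle checkpoint, cohesin protection and anaphase, 5 were lower and 1 was higher, with a median log2 fold change of -0.033, or -0.031 after the fit and -0.077 with the longest transcripts in it. Genes at the members' depth were lower in 33.7% and higher in 28.5%, or in 51.1% and 11.1% below the GC median. CDC20, UBE2C and ESPL1 lie above that median, where 13.6% were lower and 48.8% higher. BUB1 (NCBI Gene ID 699), a checkpoint kinase at kinetochores that also recruits shugoshins, had 13813 and 10066 counts (295 and 233 CPM). Its log2 fold change was -0.34 (-0.38 to -0.30), or -0.27 after the fit, and its transcripts hold 42.8% GC. SGO2, a shugoshin that shields centromeric cohesin, had 7386 and 5737 counts (158 and 133 CPM) and fell to a log2 fold change of -0.25 (-0.30 to -0.20), or -0.14 after the fit. The other shugoshin gene SGO1 was at -0.033 (-0.13 to 0.066), or 0.052 after the fit. BUB1B, which encodes the checkpoint protein BUBR1, had 12360 and 10015 counts (264 and 232 CPM) and a log2 fold change of -0.19 (-0.22 to -0.15), or -0.093 after the fit. In GENCODE 29 it shares exons with the readthrough gene BUB1B-PAK6, so its reads could have been divided by an estimate.

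BUB1, BUB1B and SGO2 thus fell the furthest of this group, and its other genes moved less. MAD2L1, which encodes the checkpoint protein MAD2, had 7052 and 6270 counts and a log2 fold change of -0.052 (-0.10 to -0.0030), which became 0.093 after the fit. TTK, which encodes the kinase MPS1, had 3696 and 3229 counts and was at -0.078 (-0.15 to -0.0091). It was at -0.030 after the fit and -0.00026 with the longest transcripts, and was not called with either. BUB3, the partner of BUB1 and BUBR1, had 10150 and 9708 counts (217 and 225 CPM) and rose by 0.053 (0.013 to 0.093), or 0.051 after the fit and 0.18 with the longest transcripts. Its deposited TPM went further apart, from 101 to 114, a log2 ratio that exceeds that of the counts by 0.12 where the median gene lies 0.054 below it. For SGO1 this excess was 0.076, and for SGO2 the TPM lay 0.13 below the counts. The deposited TPM and the counts thus parted more for these 3 genes than for most genes, whose quartiles were -0.064 and -0.044.

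With TMM scaling and without the fit, the genes that trigger anaphase did not differ detectably. UBE2C, the ubiquitin-conjugating enzyme of the anaphase promoting complex, was the most abundant member per length at 630 and 607 TPM. Its 10153 and 9420 counts (217 and 218 CPM) gave a log2 fold change of 0.0091 (-0.031 to 0.050), or -0.038 after the fit. CDC20, the activator of the same complex in mitosis, came next in level at 343 and 338 TPM, with a change of 0.034 (-0.0035 to 0.072), or -0.031 after the fit. PTTG1, which encodes securin and has near-identical copies elsewhere in the genome, was at 302 and 292 TPM and -0.032 (-0.091 to 0.026), or -0.041 after the fit. ESPL1, which encodes separase, was at 43 and 42 TPM and 0.025 (-0.028 to 0.078), or 0.016 after the fit. With the longest transcripts in the fit, UBE2C (-0.091), CDC20 (-0.077) and PTTG1 (-0.12) were called lower and ESPL1 (0.020) was not called.

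Kinetochore genes had the lowest median of the 7 groups, -0.19, with 5 of 6 lower and none higher, and the median was -0.14 after the fit. The group's median GC content was 40.3%, and below the GC median of all genes 51.1% of genes at the members' depth were lower and 11.1% higher. CENPF (NCBI Gene ID 1063), a large protein of the outer kinetochore that appears in G2, had 17213 and 11440 counts (368 and 265 CPM). It fell furthest of all 59 genes, with a log2 fold change of -0.47 (-0.51 to -0.44), so that its CPM fell by 27.9%. At 40.0% GC, its value of -0.33 after the fit was again the lowest of the members and the only one beyond 0.32 in size, while with the longest transcripts in the fit no member passed. CENPE (1062), the kinesin that carries chromosomes to the metaphase plate, had 6732 and 4859 counts (144 and 113 CPM) and a log2 fold change of -0.35 (-0.41 to -0.30), or -0.16 after the fit. Both genes have long transcripts, the longest of 10307 and 8612 bases.

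CENPA, the histone variant that marks the centromere, has transcripts of 1452 bases at most. It had 1195 and 960 counts and fell too, with a log2 fold change of -0.20 (-0.32 to -0.075), or -0.18 after the fit. In GENCODE 29 it shares exons with SLC35F6, so its counts could rest on an estimated division. The NDC80 complex binds microtubule ends. NDC80 had 2995 and 2451 counts (64.0 and 56.8 CPM) and a log2 fold change of -0.17 (-0.25 to -0.094), or -0.13 after the fit. Its partner NUF2, the most abundant of the group per length at 105 and 96 TPM, had 4222 and 3708 counts (90.2 and 85.9 CPM) and -0.070 (-0.13 to -0.0060), a call not kept after the fit, where it was at 0.017, or -0.026 with the longest transcripts. SPC25 was at 87 and 81 TPM with -0.055 (-0.14 to 0.029), or 0.0083 after the fit. The remaining subunit, SPC24, is not among the 59 and was picked out after its value was seen. It had 2815 and 2788 counts and a log2 fold change of 0.10 (0.027 to 0.18), or -0.0027 after the fit, so without the fit the transcripts of this complex did not move in a single direction.

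Of the 10 kinesins, motor proteins that move along or take apart microtubules, 7 were lower and 1 higher, with a median log2 fold change of -0.096. Genes at the members' depth were lower in 33.7% and higher in 28.5%, or in 51.1% and 11.1% below the GC median. KIF2C and KIF22, at 50.1% and 58.2% GC, lie above that median, where 13.6% were lower and 48.8% higher. After the fit the group median was 0.014, or -0.015 with the longest transcripts. KIF20B (NCBI Gene ID 9585), a motor of cytokinesis, had 6184 and 4368 counts (132 and 101 CPM). It fell most in this group, with a log2 fold change of -0.38 (-0.44 to -0.33), and has the lowest GC content of the members, 34.2%, with -0.19 left after the fit. KIF14 (9928), which localises to the central spindle, had 8789 and 6479 counts (188 and 150.2 CPM) and a log2 fold change of -0.32 (-0.37 to -0.28), or -0.15 after the fit. KIF15, which helps to hold the spindle bipolar, had 3389 and 2660 counts (72.4 and 61.7 CPM) and -0.23 (-0.31 to -0.16), or -0.11 after the fit. These 3 motor genes were lower with and without the fit.

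KIF11, the motor that pushes the spindle poles apart, lost its call with the fit. It had 9309 and 7861 counts and a log2 fold change of -0.13 (-0.17 to -0.083), but 0.023 after the fit and -0.010 with the longest transcripts. KIF23, a motor of the central spindle (-0.084, -0.14 to -0.032, with 0.021 after the fit and -0.019 with the longest transcripts), and KIF18A, which limits chromosome oscillation (-0.090, -0.18 to -0.00019, with 0.059 and 0.013), lost theirs as well. KIF4A, a chromosome-bound motor with a near-identical intronless copy, KIF4B, was at -0.10 (-0.16 to -0.043). It was at -0.030 after the fit and -0.057 with the longest transcripts, and was not called with either. KIF22, another chromosome-bound motor and the most abundant of the group at 158 and 161 TPM, had 6878 and 6730 counts (147 and 156 CPM) and rose by 0.086 (0.037 to 0.13). Its transcripts hold 58.2% GC, and after the fit it was at 0.022 with an interval that included 0. KIF2C, which takes apart microtubule ends (0.024, -0.019 to 0.066, with 0.0063 after the fit), and KIF20A, a motor of cytokinesis (0.046, -0.016 to 0.11, with 0.057), were not called.

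All 7 genes of condensin and the chromosome surface were lower, with a median log2 fold change of -0.15, or -0.050 after the fit. NCAPD2 and CDCA2 were not called under upper-quartile scaling, and SMC2 and CDCA2 were not called after the fit. With the longest transcripts in the fit, NCAPD2, SMC2 and CDCA2 were not called. At the members' depth 33.7% of genes were lower, and 51.1% of those below the GC median. NCAPD2 lies above that median, where 13.6% were lower. MKI67, which encodes the proliferation marker Ki-67 that coats mitotic chromosomes, had more counts than any other member, 39836 and 30871 (851 and 716 CPM). Its log2 fold change was -0.25 (-0.27 to -0.23), and it was at -0.15 after the fit. SMC4, a core subunit of condensin, had 27678 and 22018 counts (591 and 510.3 CPM) and a log2 fold change of -0.21 (-0.24 to -0.19), or -0.16 after the fit and -0.079 with the longest transcripts. The partner of SMC4 in condensin, SMC2, had 7984 and 6640 counts and -0.15 (-0.20 to -0.10), which became 0.0050 after the fit and -0.010 with the longest transcripts. Of the subunits found only in condensin I, NCAPG had 7674 and 6213 counts (164 and 144 CPM) and -0.19 (-0.24 to -0.14), or -0.050 after the fit and -0.079 with the longest transcripts. NCAPH was at -0.077 (-0.13 to -0.028), or -0.051 after the fit, and NCAPD2 at -0.049 (-0.093 to -0.0057), or -0.050, a call not kept with the longest transcripts (-0.033). CDCA2, which brings a phosphatase to chromosomes at mitotic exit, was at -0.086 (-0.16 to -0.012), or -0.0033 after the fit.

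The levels of the condensin I subunits were unequal per length. SMC4 stood at 252 and 209 TPM, NCAPD2 at 89 and 83, NCAPG at 81 and 71, and SMC2 and NCAPH each at 66 TPM unexposed and at 58 and 62 exposed. SMC4 was thus the most abundant subunit transcript in both libraries. It overlaps exons of IFT80 and TRIM59 on the other strand. In all, 22 members overlap an exon of a gene on the other strand, and whether the counting used the strand of the stranded libraries is not given in the sources used here.

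Of the 10 genes of the spindle and cytokinesis, 8 were lower and none higher, with a median log2 fold change of -0.12, or -0.094 after the fit. Genes at the members' depth were lower in 33.7% and higher in 28.5%, or in 51.1% and 11.1% below the GC median, above which TACC3 lies. ASPM (NCBI Gene ID 259266), which focuses microtubules at spindle poles, had 8582 and 6123 counts (183 and 142 CPM). Its log2 fold change was -0.37 (-0.42 to -0.32), with transcripts of 37.1% GC and up to 10887 bases, and -0.20 was left after the fit. DLGAP5, which stabilises kinetochore fibres, had 5581 and 4272 counts (119 and 99.0 CPM) and -0.27 (-0.33 to -0.21), or -0.17 after the fit. ECT2, the exchange factor that activates RhoA for the cleavage furrow, had 6423 and 5043 counts (137 and 117 CPM) and -0.23 (-0.29 to -0.18), or -0.16 after the fit and -0.12 with the longest transcripts. ANLN, which encodes the furrow scaffold anillin and had the lowest level of the members at 19 and 16 TPM, was at -0.19 (-0.29 to -0.096), or -0.14 after the fit and -0.092, not called, with the longest transcripts.

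RACGAP1, the partner of ECT2 and KIF23, was at -0.031 (-0.077 to 0.015) and not called. After the fit it was called lower, at -0.058, but with the longest transcripts it was at 0.012 and not called. PRC1, which bundles the central spindle, was at -0.12 (-0.17 to -0.060), or -0.13 after the fit and -0.088 with the longest transcripts. The length used in the fit was 755 bases for PRC1, the median over its transcripts, where the longest has 4087. NUSAP1 and HMMR, both of which bind spindle microtubules, had log2 fold changes of -0.12 (-0.16 to -0.081) and -0.12 (-0.17 to -0.070), and were at -0.038 and 0.0046 after the fit and not called. With the longest transcripts NUSAP1 was called lower, at -0.090, and HMMR was at -0.024. PRC1 and NUSAP1 share exons with neighbouring genes known only by clone names. TPX2, which activates AURKA on the spindle, was the most abundant of the group at 311 and 291 TPM, with 22468 and 20101 counts (480.1 and 466 CPM) and a log2 fold change of -0.043 (-0.071 to -0.016). After the fit it was at 0.019, or -0.015 with the longest transcripts, so AURKA was lower with and without the fit and its activator only without it. TACC3, which stabilises kinetochore fibres, was at 0.046 (-0.00026 to 0.092), or -0.040 after the fit.

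Over all members, levels per length spanned from 19 to 630 TPM unexposed and from 16 to 607 TPM exposed, with medians of 89 and 79 TPM. The summed counts of the groups followed their medians only in part. Kinetochore genes went from 743 to 592 CPM, a log2 change of -0.33, of which CENPF alone made up 368 and 265 CPM, condensin and chromosome surface genes from 2189 to 1917 CPM (-0.19), and spindle and cytokinesis genes from 1819 to 1678 CPM (-0.12). Kinesins went from 1315 to 1217 CPM (-0.11) and checkpoint and anaphase genes from 1903 to 1789 CPM (-0.089). Genes of mitotic entry were at 1323 and 1314 CPM (-0.0094).

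Other genes of mitosis, taken from lists of the same pathway, were uneven as well. Their counts stand beside the shares among genes at the members' depth given above, 33.7% lower and 28.5% higher, or 51.1% and 11.1% below the GC median and 13.6% and 48.8% at or above it. Of 32 other kinetochore and centromere genes, 13 were lower and 4 higher, with a median log2 fold change of -0.052, and CENPP (1823 and 1369 counts, -0.30, -0.40 to -0.19) and KNTC1 (4675 and 3645 counts, -0.24, -0.30 to -0.18) fell furthest by the bound of their intervals and were at -0.27 and -0.15 after the fit. Among 14 genes of condensin II and cohesin, 11 were lower and 2 higher, with a median of -0.13, led by the cohesin loader NIPBL (6157 and 4688 counts, -0.28, -0.33 to -0.22) and the condensin II subunit NCAPG2 (6909 and 5451 counts, -0.22, -0.28 to -0.17), which were at -0.12 and -0.13 after the fit. The condensin II subunit NCAPH2, picked out after its value was seen, was higher (4694 and 4773 counts, 0.14, 0.083 to 0.20), with 0.033 after the fit. Of the 10 centrosome genes 9 were lower, where 51.1% of genes at the members' depth and below the GC median were, with a median of -0.16 and a median GC content of 41.5%. CEP152 (3132 and 2426 counts) was at -0.25 (-0.33 to -0.17) and NEDD1 (2269 and 1799 counts) at -0.22 (-0.31 to -0.13), or -0.12 and -0.11 after the fit. After the fit the medians of these 3 lists were -0.017, -0.054 and -0.039.

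The anaphase promoting complex, the target of CDC20 and the checkpoint, had 3 of 17 genes lower, 6 higher and a median of 0.026 (0.033 after the fit), against 33.7% lower and 28.5% higher at the members' depth. ANAPC1 (10108 and 7980 counts, -0.22, -0.27 to -0.18) and CDC27 (11155 and 8934 counts, -0.20, -0.24 to -0.16), both of which have pseudogene copies that could take up reads, were lower and stood at -0.14 and -0.089 after the fit. Among 17 other genes of mitotic entry, 4 were lower and 4 higher, with a median of 0.012 (0.021 after the fit). WEE1, the kinase that inhibits CDK1, had 2661 and 2175 counts and a log2 fold change of -0.17 (-0.26 to -0.091), and ARPP19, whose product inhibits the phosphatase that opposes CDK1, had 18865 and 15492 counts and -0.17 (-0.20 to -0.14). After the fit they were at -0.11 and -0.13. Genes of like function went the other way without the fit and were picked out after their values were seen. PKMYT1, another kinase that inhibits CDK1, was higher (4558 and 4382 counts, 0.060, 0.00029 to 0.12), with -0.10 after the fit, and ENSA, which has the role of ARPP19, was higher as well (11708 and 11579 counts, 0.10, 0.064 to 0.14), with 0.052 after the fit. Of 31 other spindle genes, 28 were tested, since PIMREG, DEPDC1 and PBK were listed at 0 counts, and 15 were lower and 6 higher, with a median of -0.10 (-0.063 after the fit). CKAP2L (10058 and 7699 counts, -0.27, -0.31 to -0.23) and MELK (3910 and 3017 counts, -0.26, -0.33 to -0.19) fell furthest in that list and were at -0.14 and -0.17 after the fit.

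Tubulins supply the spindle's building blocks. Of 11 genes of tubulins and the gamma-tubulin ring, 7 were higher and 2 lower, with a median of 0.11 (0.062 after the fit). Their median GC content was 53.3%, and 48.8% of genes at the members' depth and at or above the GC median were higher and 13.6% lower. TUBGCP4 and TUBGCP5, the 2 lower genes, and TUBGCP3 lie below that median, where 51.1% were lower and 11.1% higher. TUBB4B had 20494 and 21823 counts and rose by 0.21 (0.18 to 0.24), or 0.12 after the fit, whereas the ring gene TUBGCP4 had 3523 and 2673 counts and fell to -0.28 (-0.35 to -0.21), or -0.24 after the fit. Tubulin genes have near-identical copies, between which the counting could divide reads. For comparison with an earlier phase of the cycle, 9 of 38 S phase genes were lower and 12 higher, with a median of 0.018 (0.016 after the fit), against 23.9% lower and 21.8% higher among all genes tested and 33.7% and 28.5% at the members' depth. The licensing genes CDT1 (3112 and 3517 counts, 0.29, 0.22 to 0.36) and MCM2 (25527 and 25870 counts, 0.14, 0.11 to 0.16) were the genes farthest from 0 in that list by the bound of their intervals, and were at 0.16 and 0.071 after the fit. The S phase genes had a median GC content of 49.8%, above the 44.4% of the members.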

How the data were processed

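RNA of NK92 cells from 1 unexposed and 1 exposed dish was compared. According to the submitters' processing notes, reads were trimmed with Trimmomatic 0.38, mapped with HISAT2 2.2.0 to hg38 and counted with StringTie 2.1.3b, and edgeR 3.17 was named for their comparison. The authors deposited read counts per gene, which StringTie derives from transcript coverage, so reads in exons that genes share are divided by an estimate. These counts carry commas between groups of digits, which were removed, and were recorded under the unit other. Since each dish gave 1 library and had no replicate, the spread among replicates is unknown. A count model that needs this spread was therefore not fitted. The Clopper-Pearson intervals are binomial and rest on the counts of each gene alone. The deposited TPM were rounded by the authors to whole numbers and treated as a score. No column of per-sample values was left without a sample.

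The members and lists were chosen with earlier results of these data known. TMM scaling, which trimmed 30% of the log ratios and 5% of the mean levels, the prior count of 2 and the intervals were written in Python (3.11.15) and tested on simulated data. The packages were scipy 1.17.1, statsmodels 0.14.6, pandas 2.3.3, numpy 2.4.6 and matplotlib 3.10.9. The median half-width of the members' intervals was 0.050 on the log2 scale. The robust fit used 9949 genes with at least 200 counts, with transcript length (log2) and GC content from GENCODE 29. The counts rest on another annotation, and GENCODE gave values for 87.5% of tested genes and all 59 members. Shared and overlapping exons were read from GENCODE 29 too, so they need not be shared in the annotation used for counting. Promoter sequences came from RefSeq, and no protein sequences were used here.

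All members are described, with full values by rule for the 3 members of each group whose interval bound lay farthest from 0 on the side of their change, the most abundant per length and every higher member, and for 2 genes of each other list. The alternatives were other scalings, prior counts and filters, the TPM, the fit with median or longest transcripts, and the members without those sharing exons.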

Additional observations from a re-analysis of the deposited data

How the results depend on the processing

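No paired analysis was possible because only 1 library per condition was analysed, and for the same reason no library could be left out in turn. Counting error limits what could be detected to about 0.050 on the log2 scale for a typical member, and differences between dishes are not covered. With median-of-ratios, total-count and upper-quartile scaling, between 29 and 38 members were lower, and 10 were higher with upper quartiles against 6. AURKB lost its call with median-of-ratios and total-count scaling, INCENP was called lower with median of ratios, 8 lower members lost theirs with upper quartiles, and UBE2C, which was not called, changed sign with median of ratios. Prior counts of 0.5 and 5, no filter and a filter of 200 counts changed no call counted here. With TPM, the medians were -0.029 for the passenger complex, which changed sign, -0.074 for mitotic entry, -0.16 for kinesins and -0.17 for spindle and cytokinesis, on a scale that lies lower by a median of 0.054, and the members' median was -0.13. With the fit on length and GC content removed, 24 members were lower and 1 was lower by at least 0.32, and the medians were -0.041 for the passenger complex, 0.014 for kinesins and -0.050 for condensin. AURKB (-0.0066), NUF2 (0.017) and TPX2 (0.019), and of the genes not called UBE2C (-0.038) and CCNB1 (0.012), changed sign, among others named in the report, and KIF22 lost its call. With the longest transcripts in that fit, chosen after the data were seen, 0 members were lower by at least 0.32, those medians were -0.064, -0.015 and -0.070, that of checkpoint and anaphase genes was -0.077 against -0.033, and AURKB (-0.045), UBE2C (-0.091) and KIF22 (-0.0069) lay on the other side of 0, while NUF2 and TPX2 lost their calls. The cause of these differences was not tested. Without the 4 members that share exons, also chosen after the data were seen, 33 of 55 were lower and 6 higher, with a median of -0.077.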

Other observations

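Some genes of the pathway lists that were not named above also moved beyond counting error, and were picked out after their values were seen. OIP5, which encodes a factor of CENPA deposition, had 1605 and 1754 counts and rose by 0.25 (0.15 to 0.34), or 0.21 after the fit on length and base composition. The augmin complex, which branches spindle microtubules, was divided. HAUS2 (4015 and 3467 counts, -0.094, -0.16 to -0.029), HAUS3 (1875 and 1490 counts, -0.21, -0.31 to -0.12), HAUS4 (1082 and 847 counts, -0.24, -0.37 to -0.10) and HAUS6 (4578 and 3611 counts, -0.23, -0.29 to -0.16) were lower, and HAUS5 (1973 and 2061 counts, 0.18, 0.090 to 0.27) and HAUS8 (1462 and 1571 counts, 0.22, 0.12 to 0.32) were higher. HAUS1 (-0.082, -0.17 to 0.0031) and HAUS7 (0.090, -0.017 to 0.20) were not called. After the fit, HAUS2 was at -0.071, HAUS3 at -0.12, HAUS4 at -0.26, HAUS6 at -0.084, HAUS5 at 0.15 and HAUS8 at 0.18. HAUS1, HAUS2, HAUS3 and HAUS6 lie below the GC median, where 51.1% of genes at the members' depth were lower and 11.1% higher. HAUS4, HAUS5, HAUS7 and HAUS8 lie above it, where 13.6% were lower and 48.8% higher.

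KIFC1, a minus-end motor that is not among the 59, had 8737 and 8999 counts and rose by 0.16 (0.12 to 0.20), whereas KIF2A, a relative of KIF2C, had 22198 and 18348 counts and a log2 fold change of -0.16 (-0.19 to -0.13). The cohesin genes RAD21 (23925 and 19789 counts, -0.16, -0.18 to -0.13) and PDS5B (5234 and 4138 counts, -0.22, -0.28 to -0.16) were lower, and the loader partner MAU2 (2920 and 2969 counts, 0.14, 0.067 to 0.22) was higher. After the fit, KIFC1 was at 0.065, KIF2A at -0.070, RAD21 at -0.11, PDS5B at -0.086 and MAU2 at 0.013. The higher genes KIFC1 and MAU2 lie above the GC median, and the lower genes KIF2A, RAD21 and PDS5B below it.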
